A study of Mus musculus with 16 samples.

Results

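Ribosome biogenesis was followed through 42 genes, found by symbol among the 23234 named genes of the deposited expression table, out of 43 listed. Noc2l was not found under its listed or RefSeq names and is not analysed here. The 42 genes were taken by name and not by a filter on their values in these libraries. The list itself was chosen with earlier results of these data known. They comprise 8 genes of RNA polymerase I transcription and nucleolar organisation, 4 of the core small nucleolar ribonucleoproteins (snoRNPs), 15 of small subunit assembly and 15 of large subunit assembly.

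The libraries came from C57BL/6 B cells of the genotype Bcl6-YFP(KI/+) B1-8hi(KI/+), that is, cells with a yellow fluorescent reporter of Bcl6, the master repressor of the germinal centre (GC), and a receptor gene that favours binding of the hapten NP. Naive cells of this kind were given to CD45.1+ wild-type mice, which received the NP-carrying protein CGG in alum intraperitoneally, and spleen cells of 9 recipients were pooled on day 10. All 6 gates hold donor cells that were CD45.2+, NP-binding, CD138− and IgG1+. The light zone (LZ) gate, with 3 libraries, was CD38−, CD86hi and CXCR4lo. Fraction 2, with 2 libraries, was the Bcl6-YFPhi CD69hi portion of that gate, called recycling-prone in the labels, and Fraction 3, with 3 libraries, its Bcl6-YFPhi CD69lo portion, called light zone cells under selection. The other gates were CD38+ and GL7−. Fraction 5 (3 libraries, pro-memory) was Bcl6-YFPhi Efnb1hi, Fraction 6 (2 libraries, pre-memory) Bcl6-YFPlo Efnb1hi, and Fraction 7 (3 libraries, mature memory) Bcl6-YFPlo Efnb1lo. The comparisons ask how the gates differ along the paths back into the GC cycle and out to memory. All cells were taken on day 10, so passage from one gate to another was not observed. The labels do not say whether libraries of a gate came from separate sorts or pools, so the p-values measure only the spread between libraries, which may be technical.

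Ribosomes are built in the nucleolus, where RNA polymerase I transcribes the long precursor of the ribosomal RNAs. Guided by snoRNPs, the precursor is methylated, pseudouridylated and cut, and many assembly factors fold it with ribosomal proteins into the small and large subunits. Cells that grow before division need many ribosomes, and the transcription factor Myc, which binds the E-box CACGTG with its partner Max, is known to raise the genes of this pathway. In the GC, Myc is known to mark light zone cells that received T cell help.

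Because Myc is known to bind E-boxes, the promoters of the 42 genes were read from RefSeq (build GRCm38.p6). Each ran from 250 bases before to 50 bases after the annotated start. Of the 42 genes, 36 matched, with 38 promoters, and Npm1, Fbl, Rrp12, Bop1, Rrs1 and Tcof1 did not match. The E-box CACGTG, which reads the same on both strands, stood in 10 of these 38 promoters, or 26.3%, against 7.15% of all 32851 promoters in the table. It was found in those of Grwd1, Imp4, Mybbp1a, Nle1, Nop2, Pes1, Tsr1, Utp18, Utp20 and Wdr43. The ETS-type motif CCGGAAG, or CTTCCGG on the other strand, also stood in 26.3% of the 38 promoters, against 8.86% of all. The YY1-type motif AAGATGG, or CCATCTT, stood in 10.5% against 6.34%. Grwd1 and Tsr1 held all 3 motifs, so the counts overlap. The 32851 promoters were not matched to those of the 42 genes in expression or base content. These are matches of letters, binding was not measured here, and a part of Myc was not tested.

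The promoters of 3 genes that hold the E-box and of 2 that do not are printed 5′ to 3′ on each gene's strand, with the E-box in capitals. Grwd1, Nle1 and Nop2 were chosen because they take part in large subunit assembly, hold the E-box and were all higher in Fraction 2 than in Fraction 3. Pes1, another large subunit gene with the E-box, did not pass there (limma adjusted p = 0.0510), nor did Imp4 (0.0682). Since the choice used these values, the printed promoters are examples, and a link of the E-box to Fraction 2 was not tested. Gnl3 had the largest difference between those gates of the 42 genes, and Bysl was the 1 gene called lower in Fraction 6 than in Fraction 5. They lie at chr7:45830740-45831039 (minus strand, Grwd1), chr11:82908346-82908645 (minus, Nle1), chr6:125131633-125131932 (plus, Nop2), chr14:31019082-31019381 (minus, Gnl3) and chr17:47611443-47611742 (minus, Bysl). Counted from the start site, the E-box begins at base 35 in Grwd1, at base 24 in Nle1 and at base -60 in Nop2.
Grwd1: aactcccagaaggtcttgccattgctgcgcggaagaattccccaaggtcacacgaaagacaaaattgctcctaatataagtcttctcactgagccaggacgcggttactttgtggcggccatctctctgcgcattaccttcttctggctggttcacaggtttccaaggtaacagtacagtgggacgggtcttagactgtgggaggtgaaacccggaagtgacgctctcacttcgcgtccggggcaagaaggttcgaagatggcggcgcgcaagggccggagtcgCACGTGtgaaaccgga
Nle1: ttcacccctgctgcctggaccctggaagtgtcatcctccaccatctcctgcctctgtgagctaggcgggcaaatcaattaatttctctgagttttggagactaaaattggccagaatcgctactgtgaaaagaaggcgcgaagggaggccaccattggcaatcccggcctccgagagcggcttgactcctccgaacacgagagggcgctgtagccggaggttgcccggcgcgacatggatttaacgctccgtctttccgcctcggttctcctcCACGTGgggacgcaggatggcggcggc
Nop2: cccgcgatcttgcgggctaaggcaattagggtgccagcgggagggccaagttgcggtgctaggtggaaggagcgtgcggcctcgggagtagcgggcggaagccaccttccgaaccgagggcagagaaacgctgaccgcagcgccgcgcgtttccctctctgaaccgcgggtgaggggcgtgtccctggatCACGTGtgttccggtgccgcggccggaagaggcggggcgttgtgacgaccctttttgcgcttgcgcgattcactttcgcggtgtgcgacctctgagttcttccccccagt
Gnl3: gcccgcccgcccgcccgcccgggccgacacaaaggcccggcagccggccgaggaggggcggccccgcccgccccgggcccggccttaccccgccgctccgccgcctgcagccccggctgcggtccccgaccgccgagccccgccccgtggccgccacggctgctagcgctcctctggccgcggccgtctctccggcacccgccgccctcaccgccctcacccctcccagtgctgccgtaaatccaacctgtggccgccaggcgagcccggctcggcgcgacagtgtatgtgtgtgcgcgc
Bysl: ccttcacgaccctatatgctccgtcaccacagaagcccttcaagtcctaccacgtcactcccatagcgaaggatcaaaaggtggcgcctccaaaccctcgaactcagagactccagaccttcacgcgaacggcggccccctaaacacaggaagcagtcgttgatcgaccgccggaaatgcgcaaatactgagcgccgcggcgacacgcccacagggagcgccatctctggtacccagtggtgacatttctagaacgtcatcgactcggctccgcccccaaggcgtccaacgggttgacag

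Values are FPKM (fragments per kilobase of transcript, scaled to the mapped fragments of the library), which set each gene against the rest of its own library, so a change in the total RNA of a cell would not be seen. In sorted bulk RNA, fewer cells of a kind and less RNA per cell cannot be told apart. The sum of all FPKM ran from 416741 to 492578 over the 16 libraries, and 10133 to 10552 genes reached 1 FPKM. Relative depth, estimated from the spacing of low FPKM, was 0.922 to 1.21 times that of the first LZ library. The estimate is rough, since only 9.63% to 19.5% of the low genes compared fell at the spacing used. The absolute depth is unknown. Pax5, which encodes a B cell transcription factor, was at 137 to 238 FPKM over all libraries. Bcl6 lay between 145 and 205 FPKM in LZ, Fraction 2, Fraction 3 and Fraction 5, at 75.3 and 70.2 in Fraction 6 and at 15.0 to 20.5 in Fraction 7. Fractions 6 and 7 are both Bcl6-YFPlo, so the reporter gate gives no order between them. Cd69 RNA did not separate the CD69hi from the CD69lo gate, at 13.4 and 13.3 FPKM in Fraction 2, against 11.5, 9.49 and 14.4 in Fraction 3 (log2 change 0.18 ± 0.13, limma adjusted p = 0.361). Libraries 2 and 3 of Fraction 7 stood apart in Sdc1, which encodes the excluded plasma cell marker CD138. It was 0.502, 4.44 and 4.51 FPKM in the 3 Fraction 7 libraries, and at most 0.534 in any other library. The 8 plasma cell markers summed to 341 to 629 FPKM in Fraction 7, against 288 to 294 in Fraction 6 and 424 to 537 in the other gates. For Fraction 7, median log2 changes of the ribosome biogenesis genes are therefore given with and without its libraries 2 and 3. Without these libraries the gate holds only 1 library, so effect sizes but no calls are given for that setting. Over all libraries, macrophage and dendritic cell markers summed to at most 19.3 FPKM and neutrophil markers to at most 31.8, and erythroid markers to 33.1 to 148. The T cell markers summed to 7.40 to 43.8 FPKM, of which Lck alone gave 6.20 to 36.5, while Cd3e was at most 0.103.

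All 42 genes were expressed in every gate, and all 42 had their highest mean in Fraction 2. Summed over the 42 genes, FPKM averaged 2079 ± 136 in LZ, 2789 ± 9.14 in Fraction 2, 1685 ± 93.9 in Fraction 3, 1077 ± 95.9 in Fraction 5, 1197 ± 85.5 in Fraction 6 and 1103 ± 101 in Fraction 7 (SD, n = 3, 2, 3, 3, 2 and 3). That was 0.428%, 0.571%, 0.356%, 0.235%, 0.264% and 0.256% of all FPKM in the same order of gates. The library sums of Fractions 5, 6 and 7 overlapped. The lowest mean fell in Fraction 5 for 29 genes, in Fraction 7 for 12 and in Fraction 6 for 1, Imp4. The LZ gate, which holds both Fraction 2 and Fraction 3 cells, averaged above Fraction 3 for 41 of the 42 genes, the exception being Tcof1. These rankings of gate means were not counted over all tested genes and take no account of the spread between libraries. In 35 of the 42, both Fraction 2 libraries lay above all other 14 libraries, as they did for 14.7% of all 11266 tested genes. Those that overlapped were Bysl, Nip7, Nob1, Nop14, Rrp9, Tcof1 and Utp14a. All 3 Fraction 7 libraries lay below all other 13 libraries for 3 genes, Bysl, Rrs1 and Tcof1, and for 16.5% of all tested genes.

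**Figure D1:**
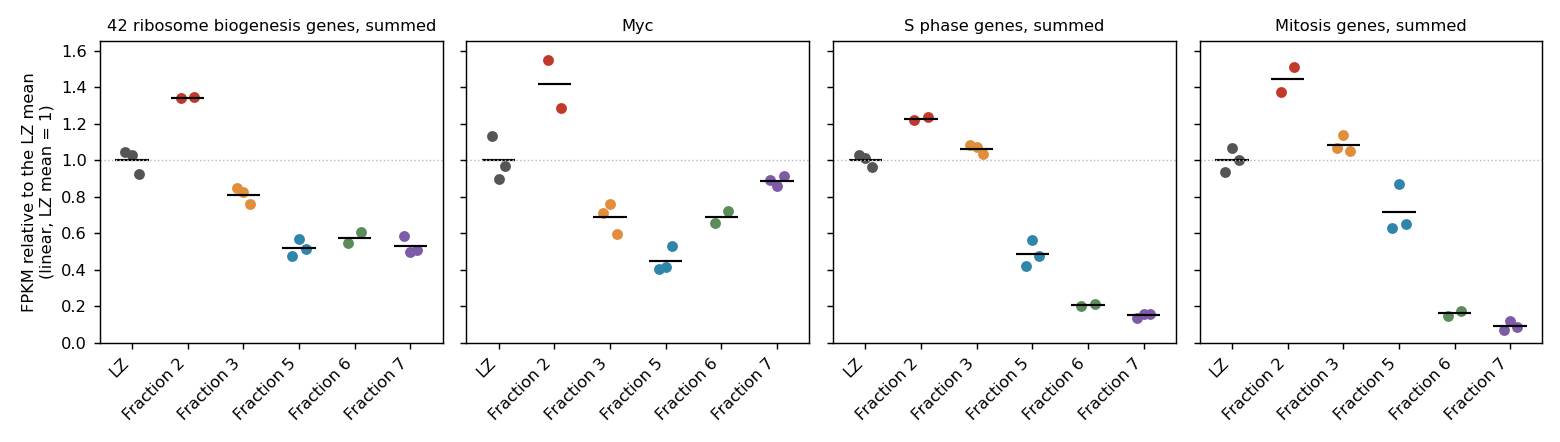
Summed FPKM of the 42 ribosome biogenesis genes, FPKM of Myc, and summed FPKM of 20 S phase genes and 20 mitosis genes, each divided by its LZ mean (linear axis from 0). Points are libraries and bars are gate means. The 42 genes overlapped between Fractions 5, 6 and 7, with mean sums of 1077, 1197 and 1103 FPKM, while the S phase and mitosis genes were lower still in Fractions 6 and 7.

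Summed over each list, cell cycle genes were lowest in Fraction 7. Of the 20 S phase genes, 18 had a lower estimate in Fraction 7 than in Fraction 6 and 2 a higher one. Tyms, 1 of these 2, had 10.2, 18.2 and 32.3 FPKM in Fraction 7, against 11.4 and 11.3 in Fraction 6. The 20 S phase genes, such as Mcm2 and Pcna, summed to 1546 to 1648 FPKM in LZ, 1955 to 1987 in Fraction 2, 1661 to 1736 in Fraction 3, 680 to 902 in Fraction 5, 322 to 340 in Fraction 6 and 223 to 258 in Fraction 7. The 20 mitosis genes, such as Plk1 and Top2a, summed to 561 to 775 FPKM in Fraction 5, 132 to 155 in Fraction 6 and 60.5 to 105 in Fraction 7. Myc had 40.0, 31.6 and 34.2 FPKM in LZ, 54.6 and 45.4 in Fraction 2, 25.1, 26.9 and 21.1 in Fraction 3, 14.2, 14.6 and 18.7 in Fraction 5, 23.2 and 25.5 in Fraction 6 and 31.5, 30.3 and 32.1 in Fraction 7. Myc was thus highest in Fraction 2 and lowest in Fraction 5, and its Fraction 7 libraries overlapped those of LZ. The part of cell cycle position or of Myc in the levels of the 42 genes was not tested.

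Among genes of polymerase I transcription and the nucleolus, Npm1 (nucleophosmin, an abundant nucleolar chaperone) was the most abundant of the 42. Its FPKM were 589, 658 and 556 in LZ, 824 and 893 in Fraction 2, 493, 502 and 436 in Fraction 3, 285, 360 and 309 in Fraction 5, 307 and 358 in Fraction 6, and 356, 290 and 301 in Fraction 7. The Fraction 2 libraries were the highest, and Fractions 5, 6 and 7 overlapped. Npm1 is known to have processed copies in the mouse genome, and how reads shared with them were assigned is not given in the sources used here. Ncl (nucleolin, which binds the ribosomal RNA precursor) had 123, 127 and 114 FPKM in LZ, 167 and 172 in Fraction 2, 97.0, 97.3 and 86.1 in Fraction 3, 55.9, 70.1 and 57.8 in Fraction 5, 59.3 and 66.4 in Fraction 6, and 57.2, 50.7 and 46.9 in Fraction 7. Every Fraction 2 library again lay above every other. Polr1b, a core subunit of RNA polymerase I, was far less abundant, at 10.9, 12.2 and 9.79 FPKM in LZ, 17.3 and 16.4 in Fraction 2, 7.57, 8.76 and 6.28 in Fraction 3, 4.74, 5.49 and 4.23 in Fraction 5, 8.13 and 8.41 in Fraction 6, and 8.78, 7.90 and 7.04 in Fraction 7. Fraction 5 was the lowest gate for Polr1b, with no library overlapping those of Fractions 6 and 7. Tcof1 (treacle, which binds polymerase I) took another course and did not separate LZ, Fraction 2 and Fraction 3, with means of 76.8, 79.7 and 78.6 FPKM. It averaged 55.2 FPKM in Fraction 5, 48.5 in Fraction 6 and 38.4 in Fraction 7.

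Among the snoRNP core genes, Fbl (fibrillarin, the methyltransferase of box C/D snoRNPs) had 173, 152 and 138 FPKM in LZ, 205 and 204 in Fraction 2, 135, 122 and 116 in Fraction 3, 63.4, 85.6 and 79.1 in Fraction 5, 83.3 and 82.0 in Fraction 6, and 99.3, 73.3 and 81.1 in Fraction 7. Nop56, a scaffold of the same particles, had 101, 89.3 and 83.6 FPKM in LZ, 125 and 112 in Fraction 2, 80.7, 69.0 and 67.3 in Fraction 3, 39.8, 43.9 and 40.7 in Fraction 5, 50.4 and 55.6 in Fraction 6, and 47.4, 39.0 and 44.1 in Fraction 7. For both genes all libraries of Fractions 5, 6 and 7 lay below every LZ, Fraction 2 and Fraction 3 library. Dkc1, the pseudouridine synthase of H/ACA snoRNPs, ranged over gate means of 22.0 FPKM in Fraction 7 to 54.4 in Fraction 2. In the GENCODE annotation of GRCm38, genes for 23 small nucleolar RNAs lie inside 8 of the 42 genes (Ncl, Nop56, Nop58, Dkc1, Wdr43, Tsr1, Gnl3 and Ppan). That is 19% of them, against 1.27% of 21951 protein-coding genes. The small RNAs themselves were not analysed here.

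In small subunit assembly, Wdr43, which links transcription of the precursor to its processing, was the most abundant gene. It had 36.2, 36.6 and 29.8 FPKM in LZ, 47.1 and 46.1 in Fraction 2, 33.1, 31.7 and 28.1 in Fraction 3, 21.3, 22.8 and 20.3 in Fraction 5, 21.8 and 27.1 in Fraction 6, and 26.3, 24.7 and 22.9 in Fraction 7. Imp4, a component of the small subunit processome, had 25.1, 28.3 and 24.7 FPKM in LZ, 30.4 and 31.8 in Fraction 2, 24.1, 24.4 and 21.9 in Fraction 3, 19.0, 14.3 and 18.3 in Fraction 5, 15.6 and 14.9 in Fraction 6, and 19.5, 14.8 and 13.9 in Fraction 7. Both were highest in Fraction 2, and every library of Fractions 5, 6 and 7 was below every LZ, Fraction 2 and Fraction 3 library. In large subunit assembly, Ddx21, an RNA helicase, had 57.1, 56.6 and 51.9 FPKM in LZ, 78.9 and 74.7 in Fraction 2, 48.3, 50.8 and 41.8 in Fraction 3, 29.4, 36.1 and 28.0 in Fraction 5, 34.0 and 37.6 in Fraction 6, and 43.1, 34.2 and 34.3 in Fraction 7. Pes1, which forms a complex with Bop1 and Wdr12, had 47.2, 44.5 and 45.6 FPKM in LZ, 48.9 and 49.3 in Fraction 2, 42.1, 35.2 and 41.4 in Fraction 3, 26.1, 28.2 and 31.8 in Fraction 5, 32.4 and 38.9 in Fraction 6, and 29.3, 29.8 and 28.0 in Fraction 7. Its Fraction 2 libraries were the highest by a narrow margin over LZ. Within each of these roles the remaining genes were less abundant, and 36 of the 42 genes were at 5 FPKM or more in every library.

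**Figure D2:**
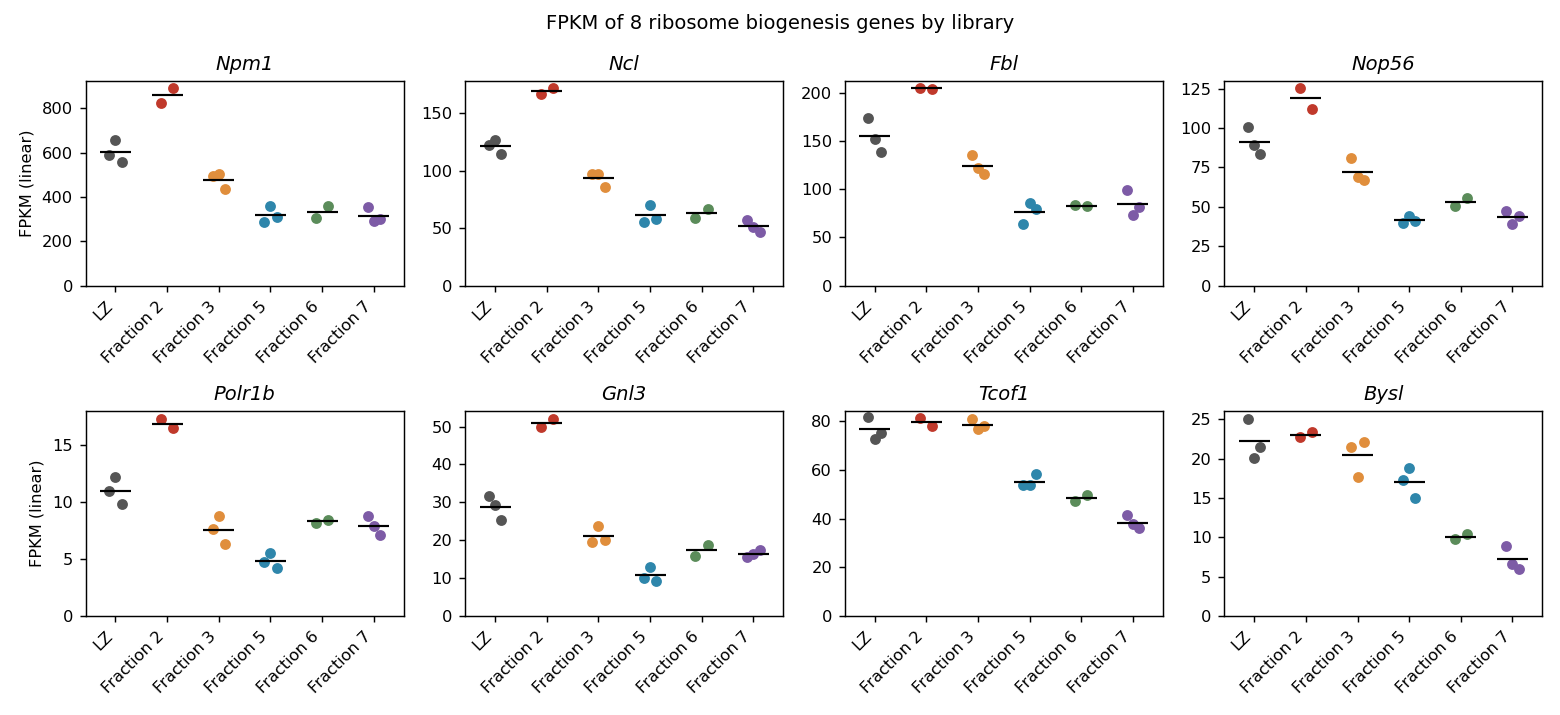
FPKM of 8 ribosome biogenesis genes in each library (points) with gate means (bars), linear axes from 0. Npm1, Ncl, Fbl, Nop56, Polr1b and Gnl3 were highest in both Fraction 2 libraries, while Tcof1 and Bysl overlapped between Fraction 2 and Fraction 3 or LZ and were lowest in Fraction 7, at means of 38.4 and 7.17 FPKM.

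Fraction 2 against Fraction 3 compares CD69hi with CD69lo cells of the Bcl6-YFPhi light zone gate. Of the 42 genes, 35 rose in Fraction 2 and 0 fell (limma on log2(FPKM + 1), adjusted over all tested genes at 0.05), and at an unadjusted p below 0.05 the counts were 40 and 0, while 9.17% of all 11266 tested genes were called higher and 6.45% lower. The median log2 change was 0.71 over the 42 genes and 0.04 over all tested genes. Those that rose were 7 of 8 polymerase I and nucleolar genes, all 4 snoRNP core genes, 12 of 15 small subunit genes and 12 of 15 large subunit genes. Gnl3 (nucleostemin, a nucleolar GTPase) had 50.02 and 51.9 FPKM in Fraction 2, against 19.5, 23.8 and 20.0 in Fraction 3. Its groups lay far apart, with a ratio of means of 2.42 and a log2 change of 1.24 ± 0.13 (SE; limma adjusted p = 0.000252). Nle1 (notchless, a large subunit assembly factor) had 15.5 and 12.4 FPKM in Fraction 2, against 5.74, 6.61 and 5.66 in Fraction 3, a log2 change of 1.09 ± 0.19 (limma adjusted p = 0.00285). Polr1b rose by 1.07 ± 0.13 on the log2 scale (limma adjusted p = 0.000619), Nolc1, a chaperone of snoRNPs, by 1.01 ± 0.13 (0.000732) and Grwd1 by 0.95 ± 0.12 (0.000632). The 7 that did not pass were Tcof1, at 0.02 ± 0.07 on the log2 scale (limma adjusted p = 0.891), Bysl at 0.17 ± 0.15 (0.471), Nip7 at 0.28 ± 0.11 (0.0950), Pes1 at 0.31 ± 0.10 (0.0510), Wdr74 at 0.32 ± 0.15 (0.163), Imp4 at 0.39 ± 0.14 (0.0682) and Utp14a at 0.46 ± 0.16 (0.0686). Both Fraction 2 libraries were above all Fraction 3 libraries for 41 of the 42 genes, as for 28.7% of all tested genes. With the first Fraction 2 library left out 27 genes rose, with the second left out 30, and with any single Fraction 3 library left out 33 to 35. Under quantile normalization all genes split into 855 higher and 1046 lower, against 1033 and 727 here, and the 42 genes still gave 35 and 0.

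The same direction was seen in the rest of the pathway. Of 108 other ribosome biogenesis genes, 58 rose and 1 fell in Fraction 2, while 9.17% of all tested genes rose and 6.45% fell. The median log2 change of the 108 was 0.42. Without either Fraction 2 library, 36 or 34 rose. Among them were 8 of 9 other snoRNP genes but 3 of 13 other genes of the polymerase I machinery. Shq1, an assembly factor of H/ACA snoRNPs, averaged 8.10 FPKM in Fraction 2 and 2.85 in Fraction 3 (log2 change 1.23 ± 0.25, limma adjusted p = 0.00581). Rrp15, a large subunit factor, averaged 35.6 and 16.4 FPKM in Fractions 2 and 3 (1.08 ± 0.10, 0.000211). Nop53, listed as Gltscr2, was the 1 that fell, at 183 FPKM in Fraction 2 and 225 in Fraction 3 (-0.30 ± 0.07, 0.0178), and this call was lost without either Fraction 2 library and without Fraction 3 library 3. Myc had a log2 change of 1.01 ± 0.13 in the same comparison (limma adjusted p = 0.000787), and 4 of 20 mitosis genes rose. None of the 20 S phase genes passed in limma, with a median log2 change of 0.20, and 7 were higher at an unadjusted p below 0.05. Naive and marginal zone B cell markers summed to 343 to 360 FPKM in Fraction 2 and 393 to 465 in Fraction 3, with 1 of 6 lower. Their part in the result was not tested.

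**Figure D3:**
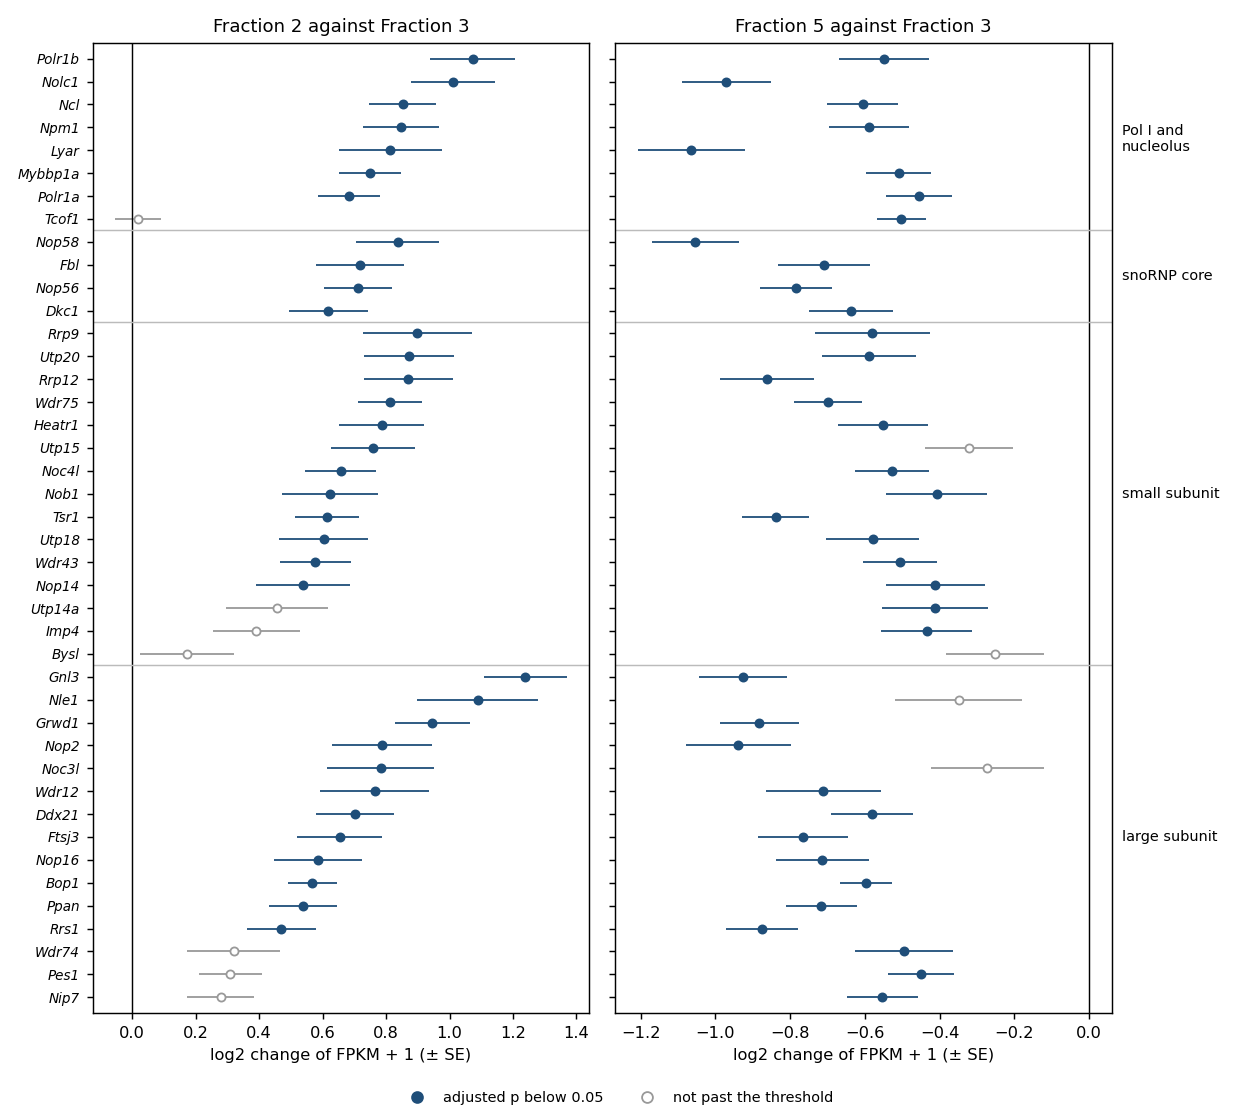
Log2 change (FPKM + 1) with its SE for each of the 42 genes, by role, in Fraction 2 against Fraction 3 (left) and in Fraction 5 against Fraction 3 (right). Filled points passed an adjusted p of 0.05. All 42 estimates are above 0 on the left, where 35 passed, and below 0 on the right, where 38 passed. Both panels use the same Fraction 3 libraries.

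Fraction 5 against Fraction 3 compares pro-memory cells, which were CD38+ and GL7−, with Bcl6-YFPhi CD69lo light zone cells. Of the 42 genes 38 fell in Fraction 5 and 0 rose in limma, and 39 fell and 0 rose at an unadjusted p below 0.05, while 19.5% of all tested genes were called lower and 9.99% higher. The median log2 change was -0.58 over the 42 genes and -0.03 over all tested genes. All 8 polymerase I and nucleolar genes, all 4 snoRNP core genes, 13 of 15 small subunit genes and 13 of 15 large subunit genes fell. Lyar, a nucleolar zinc finger protein, had 15.2, 18.1 and 14.0 FPKM in Fraction 5, against 35.1, 36.3 and 30.5 in Fraction 3. Its groups did not overlap, and the log2 change was -1.06 ± 0.14 (limma adjusted p = 0.000134). Nop58, a scaffold of box C/D snoRNPs, averaged 27.8 FPKM in Fraction 5 and 58.2 in Fraction 3 (-1.05 ± 0.12, 3.47e-05). Nolc1 fell by 0.97 ± 0.12 on the log2 scale (limma adjusted p = 6.28e-05), Nop2, an RNA methyltransferase, by 0.94 ± 0.14 (0.000278) and Gnl3 by 0.93 ± 0.12 (7.80e-05). The 4 that did not pass were Bysl at -0.25 ± 0.13 (limma adjusted p = 0.170), Noc3l at -0.27 ± 0.15 (0.196), Utp15 at -0.32 ± 0.12 (0.0557) and Nle1 at -0.35 ± 0.17 (0.143). The S phase list moved in the same direction, with 19 of 20 genes lower in Fraction 5, as did 15 of 20 mitosis genes and Myc (-0.60 ± 0.12, limma adjusted p = 0.00229). Naive and marginal zone B cell markers summed to 502 to 613 FPKM in Fraction 5 and 393 to 465 in Fraction 3, with 4 of 6 higher. Their part in the fall of the 42 genes was not tested. Quantile normalization split all genes into 1675 higher and 1652 lower, against 1125 and 2197 here, and left 35 of the 42 genes lower and 0 higher.

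Against Fraction 2, all 42 genes were lower in Fraction 5, as were 27.1% of all tested genes, while 16.6% were higher. The median log2 change was -1.32, against -0.04 over all tested genes. This comparison shares its libraries with the 2 comparisons above and is their difference, so its values are a description of distance. Gnl3 averaged 10.7 FPKM in Fraction 5 and 51.0 in Fraction 2, a log2 change of -2.17 ± 0.13 (limma adjusted p = 2.14e-07). Nolc1 had -1.98 ± 0.13 (3.01e-07), Nop58 -1.89 ± 0.13 (3.54e-07), Lyar -1.88 ± 0.16 (1.31e-06) and Grwd1 -1.83 ± 0.12 (2.76e-07). Bysl had the smallest change of the 42, and its call was lost in 4 of the 5 fits that leave out 1 library. Quantile normalization split all genes into 2746 higher and 2461 lower, against 1872 and 3056 here, and called 41 of the 42 lower.

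Other genes of the pathway were lower in Fraction 5 as well. Of the 108, 63 were lower and 1 higher against Fraction 3, where 19.5% of all tested genes were lower and 9.99% higher. Against Fraction 2, 89 were lower and 1 higher, where 27.1% of all tested genes were lower and 16.6% higher. The median log2 changes of the 108 were -0.37 and -0.74. Gar1, an H/ACA snoRNP protein, averaged 15.1 FPKM in Fraction 5, against 36.8 in Fraction 3 and 56.9 in Fraction 2. Its log2 changes were -1.23 ± 0.07 (limma adjusted p = 4.90e-07) and -1.84 ± 0.08 (3.69e-08). Pno1, the partner of the endonuclease Nob1, averaged 11.1 FPKM in Fraction 5 and 22.5 in Fraction 3 (-0.96 ± 0.11, limma adjusted p = 4.02e-05). Mrto4, a large subunit factor, averaged 17.1 FPKM in Fraction 5 and 62.3 in Fraction 2 (-1.81 ± 0.12, 2.76e-07). The 1 gene that rose in both was Nop53, at 300.3 FPKM in Fraction 5, with log2 changes of 0.42 ± 0.07 against Fraction 3 (limma adjusted p = 0.000439) and 0.71 ± 0.07 against Fraction 2 (5.95e-06). Nop53 brings the RNA exosome to the large subunit precursor. Of the 44 other large subunit genes, Nop53 included, 29 were lower in Fraction 5 than in Fraction 3 and 39 lower than in Fraction 2. Of the 13 other genes of the polymerase I machinery, 4 were lower in Fraction 5 than in Fraction 3, and 5 were lower than in Fraction 2.

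Fraction 6 against Fraction 5 compares pre-memory with pro-memory cells, which differ in the gate by the Bcl6 reporter. In Fraction 6, 13 of the 42 genes rose and 1, Bysl, fell (Bysl shares exon bases with the opposite-strand gene Ccnd3, and its call was lost without Fraction 6 library 1), while 7.07% of all tested genes were called higher and 10.4% lower. The median log2 change was 0.23 over the 42 genes and -0.00 over all tested genes. The 13 were Polr1a and Polr1b, Nop56, the small subunit genes Utp15, Utp20, Wdr75, Rrp9, Rrp12 and Tsr1, and the large subunit genes Gnl3, Nop2, Ppan and Grwd1. Polr1b rose most, by 0.68 ± 0.13 on the log2 scale (limma adjusted p = 0.00294), with 8.13 and 8.41 FPKM in Fraction 6, against 4.74, 5.49 and 4.23 in Fraction 5. The groups did not overlap. Gnl3 had 15.9 and 18.7 FPKM in Fraction 6, against 9.92, 12.8 and 9.30 in Fraction 5 (0.66 ± 0.13, limma adjusted p = 0.00302). Rrp9 rose by 0.54 ± 0.17 (0.0463), Rrp12 by 0.51 ± 0.14 (0.0242) and Utp15 by 0.50 ± 0.13 (0.0184), and each of these 3 calls was lost in most fits that leave out 1 library. The abundant Npm1, Ncl, Fbl and Ddx21 did not pass, with log2 changes of 0.07 ± 0.12, 0.04 ± 0.11, 0.13 ± 0.14 and 0.20 ± 0.12. The count of 13 rested on single libraries. Leaving out the second Fraction 6 library gave 2, and leaving out the first gave 6. Leaving out Fraction 5 library 1, 2 or 3 gave 6, 13 or 9. It was 19 with quantile normalization, which split all genes into 1042 higher and 1202 lower. Polr1b kept its call in each of these fits.

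Cell cycle genes fell in the same comparison. All 20 mitosis genes and 18 of 20 S phase genes fell in Fraction 6, with median log2 changes of -1.96 and -1.15. Myc was higher, at 0.60 ± 0.13 on the log2 scale (limma adjusted p = 0.00682). The rest of the pathway changed less, with a median log2 change of 0.05 over 108 other genes, against 0.23 over the 42. Among all tested genes, 7.07% were called higher and 10.4% lower. Of the 108 other pathway genes 10 rose and 2 fell, but leaving out Fraction 6 library 1 gave 6 that rose, leaving out its library 2 gave 3, and both the omission of Fraction 5 library 1 and the use of no filter gave 5. Mdn1, a very large ATPase of large subunit assembly, averaged 13.05 FPKM in Fraction 6 and 6.72 in Fraction 5 (0.87 ± 0.13, limma adjusted p = 0.000449), and the nucleolar gene Rrp1b averaged 6.88 and 3.89 (0.69 ± 0.12, 0.000868). Polr1h, listed as Znrd1, a small subunit of polymerase I, averaged 26.0 FPKM in Fraction 6 and 37.9 in Fraction 5 (-0.53 ± 0.11, 0.00513), and Emg1, a methyltransferase of small subunit assembly, 86.5 and 107 (-0.30 ± 0.09, 0.0383). Markers of naive and marginal zone B cells also differed, with a summed level of 713 to 762 FPKM in Fraction 6 and 502 to 613 in Fraction 5 and 4 of 6 higher. Their part in the result was not tested.

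**Figure D4:**
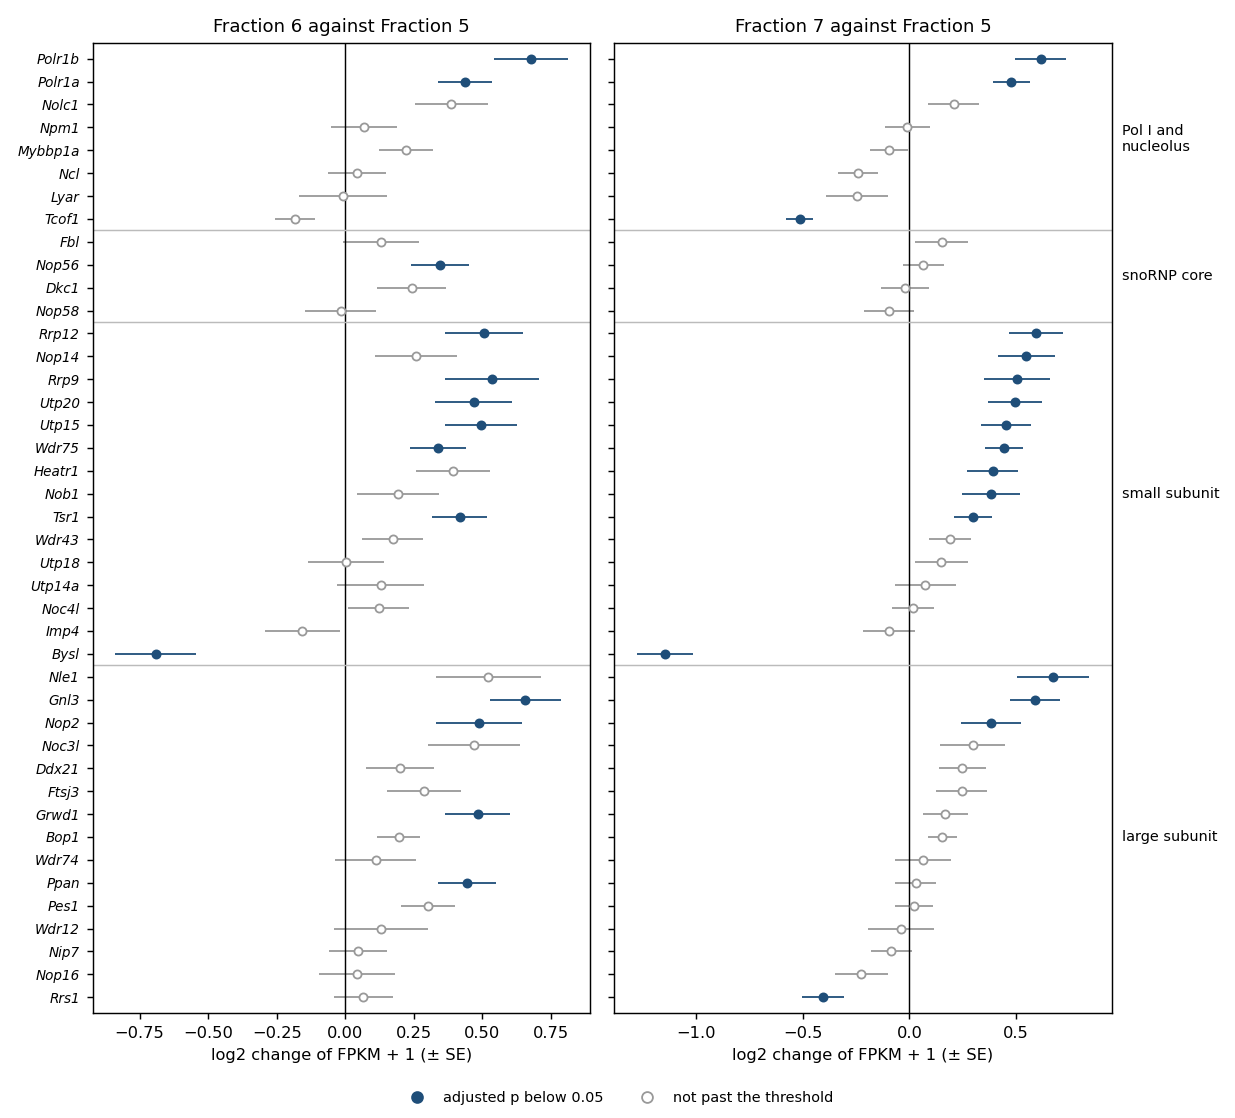
Log2 change (FPKM + 1) with its SE for the 42 genes in Fraction 6 (left) and Fraction 7 (right), each against Fraction 5, which both panels share. Filled points passed an adjusted p of 0.05: 13 higher and 1 lower on the left, 14 higher and 3 lower on the right. Bysl lies farthest below 0 in both panels.

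Between Fraction 7 and Fraction 6, the mature memory and pre-memory gates, 5 of the 42 genes differed, no larger a share than among all tested genes. All 5 fell in Fraction 7 and 0 rose in limma, and 9 fell and 0 rose at an unadjusted p below 0.05, while 13.9% of all tested genes were called lower and 7.37% higher, and the median log2 change was -0.07 over the 42 genes and -0.05 over all. Rrs1, which helps bring the smallest ribosomal RNA into the large subunit, had 13.9, 12.8 and 13.7 FPKM in Fraction 7, against 18.8 and 19.3 in Fraction 6. The groups did not overlap, with a log2 change of -0.47 ± 0.11 (limma adjusted p = 0.00690). Bysl fell by 0.46 ± 0.15 (0.0417), Ppan by 0.41 ± 0.11 (0.0137), Tcof1 by 0.33 ± 0.07 (0.00503) and Mybbp1a by 0.32 ± 0.10 (0.0335). Leaving out Fraction 6 library 2 leaves 1 library in that gate, and the median log2 change of the 42 genes was then -0.0083. Leaving out Fraction 7 libraries 2 and 3, which have Sdc1 above 4 FPKM, also leaves 1 library in the gate. The median was then 0.071, and the log2 changes of 12 genes changed sign, none of them among the 5 called. With 1 library in a gate, such fits cannot tell whether the 5 calls depend on the libraries left out or on their number. With any other single library left out, 3 to 7 genes fell. Of 8 plasma cell markers 5 were higher and 1 lower in Fraction 7, and their part in these calls was not tested. Of the 108 other pathway genes, 2 rose and 4 fell, and this balance turned to 7 and 2 with quantile normalization and to 5 and 3 with median-ratio scaling. Without Fraction 7 library 1, 9 fell, without Fraction 7 library 2 or Fraction 6 library 2, 1 fell, and array weights gave 10. The polymerase I initiation factor Rrn3 averaged 10.3 FPKM in Fraction 7 and 7.10 in Fraction 6 (0.48 ± 0.10, limma adjusted p = 0.00446) and the helicase gene Ddx51 5.80 and 4.36 (0.34 ± 0.09, 0.0137). Polr1d, a subunit shared by polymerases I and III, averaged 121 and 168 FPKM (-0.47 ± 0.09, 0.00207), and Emg1 68.6 and 86.5 (-0.33 ± 0.09, 0.0185). Of the cell cycle genes, 15 of 20 mitosis genes and 14 of 20 S phase genes were lower in Fraction 7.

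Fraction 7 was also set against Fraction 5, a comparison added after the values were seen. In Fraction 7, 14 of the 42 genes were higher and 3 lower, while 19.1% of all tested genes were called higher and 28.5% lower. The 14 came mostly from small subunit assembly, with Heatr1, Utp15, Utp20, Wdr75, Rrp9, Rrp12, Nop14, Tsr1 and Nob1, beside Polr1a and Polr1b and the large subunit genes Nle1, Gnl3 and Nop2. None of the 4 snoRNP core genes passed in limma, nor did any at an unadjusted p below 0.05. Nle1 had 7.75, 6.23 and 9.58 FPKM in Fraction 7, against 4.16, 3.48 and 6.16 in Fraction 5 (log2 change 0.67 ± 0.17, limma adjusted p = 0.00512). Polr1b changed by 0.62 ± 0.12 (0.000776), Rrp12 by 0.59 ± 0.13 (0.00157), Gnl3 by 0.59 ± 0.12 (0.000898) and Nop14 by 0.55 ± 0.13 (0.00379). The 3 that fell were Bysl at -1.15 ± 0.13 (limma adjusted p = 7.37e-06), Tcof1 at -0.51 ± 0.06 (1.80e-05) and Rrs1 at -0.41 ± 0.10 (0.00356). Ncl (-0.24 ± 0.09), Npm1 (-0.01 ± 0.11) and Fbl (0.15 ± 0.12) did not pass. Without the Fraction 7 libraries of high Sdc1, which leaves 1 library in that gate, the median log2 change of the 42 genes was 0.29, against 0.15 with all libraries. Without Fraction 5 library 1, 10 of the 42 genes were higher and 5 lower. With quantile normalization 21 were higher and 3 lower. In the same comparison all 20 mitosis genes and 19 of 20 S phase genes were lower in Fraction 7. Naive and marginal zone B cell markers summed to 708 to 842 FPKM in Fraction 7 and 502 to 613 in Fraction 5, with 3 of 6 higher and 3 lower, and their part in the result was not tested. Mdn1 averaged 17.0 FPKM in Fraction 7 and 6.72 in Fraction 5, a log2 change of 1.22 ± 0.12 (limma adjusted p = 1.65e-06), the largest rise among the 108 other genes, of which 19 rose and 12 fell.

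Fraction 7 against LZ compares the mature memory gate with the light zone gate. Of the 42 genes 36 fell and 0 rose in Fraction 7 in limma, and 37 fell and 0 rose at an unadjusted p below 0.05, while 38% of all tested genes were called lower and 24.1% higher. The median log2 change was -0.73 over the 42 genes and -0.10 over all tested genes. Lyar had 15.5, 13.6 and 10.5 FPKM in Fraction 7, against 44.8, 46.1 and 34.3 in LZ, a log2 change of -1.59 ± 0.14 (limma adjusted p = 4.06e-07). Rrs1 had 13.9, 12.8 and 13.7 FPKM in Fraction 7, against 41.6, 36.3 and 43.4 in LZ (-1.51 ± 0.10, 1.27e-08). In each of these genes every Fraction 7 library was below every LZ library. Bysl changed by -1.52 ± 0.13 (2.66e-07), Nop58 by -1.43 ± 0.12 (1.53e-07) and Grwd1 by -1.26 ± 0.11 (2.10e-07). The 6 that did not pass were Utp15 at -0.14 ± 0.12 (limma adjusted p = 0.327), Nop14 at -0.14 ± 0.13 (0.364), Nle1 at -0.17 ± 0.17 (0.405), Polr1a at -0.21 ± 0.09 (0.0508), Nob1 at -0.24 ± 0.13 (0.135) and Noc3l at -0.29 ± 0.15 (0.109). Of these, Utp15, Nop14, Nle1, Polr1a and Nob1 were among the genes higher in Fraction 7 than in Fraction 5, a comparison that shares the Fraction 7 libraries. Without the Fraction 7 libraries of high Sdc1, which leaves 1 library in that gate, the median log2 change of the 42 genes was -0.63. With quantile normalization 33 fell, the median over all genes was 0.01 and all genes split into 3455 higher and 3491 lower, against 2718 and 4279 here. Naive and marginal zone B cell markers summed to 708 to 842 FPKM in Fraction 7 and 454 to 473 in LZ, with 3 of 6 higher and 1 lower, and their part in the result was not tested. Of the 108 other pathway genes 78 fell and 4 rose. Gar1 averaged 14.7 FPKM in Fraction 7 and 46.2 in LZ (-1.59 ± 0.07, limma adjusted p = 3.85e-10), Nhp2, of the same H/ACA particle, 31.1 and 89.6 (-1.50 ± 0.11, 5.13e-08), Mdn1 17.0 and 11.4 (0.54 ± 0.12, 0.00133) and Taf1c, a polymerase I selectivity factor, 8.94 and 6.71 (0.37 ± 0.10, 0.00747). Myc did not pass in this comparison, at -0.16 ± 0.12 (limma adjusted p = 0.264).

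Bysl (bystin, a small subunit assembly factor) was the only gene of the 42 called lower in Fraction 6 than in Fraction 5, a call that was lost without Fraction 6 library 1. It had 25.1, 20.1 and 21.4 FPKM in LZ, 22.7 and 23.4 in Fraction 2, 21.5, 17.7 and 22.1 in Fraction 3, 17.2, 18.7 and 14.9 in Fraction 5, 9.76 and 10.4 in Fraction 6, and 8.90, 6.65 and 5.97 in Fraction 7. LZ overlapped Fraction 2 and Fraction 3, which did not pass against each other, while Fraction 6 lay below Fraction 5 and Fraction 7 below Fraction 6, with no overlap. In the GENCODE annotation of GRCm38, 361 of its 3854 exon bases, or 9.4%, are shared with Ccnd3, the cyclin D3 gene on the opposite strand. Ccnd3 had 160 to 181 FPKM in LZ, 175 to 186 in Fraction 2, 186 to 195 in Fraction 3, 155 to 170 in Fraction 5, 60.0 to 62.2 in Fraction 6 and 21.5 to 26.3 in Fraction 7, the same order of the last 3 gates. The library kit does not mark strand, so reads of Bysl and Ccnd3 in the shared bases cannot be told apart, and every Bysl value above carries this limit. Tsr1 shares 34.2% of its exon bases with the opposite-strand gene Srr, which was at 5.60 to 11.7 FPKM in all libraries, and Utp14a shares 18.9% with 9530027J09Rik, at 3.39 to 7.71 FPKM. Their values carry the same limit. In all, 8 of the 42 genes share more than 50 exon bases with a gene on the other strand.

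**Figure D5:**
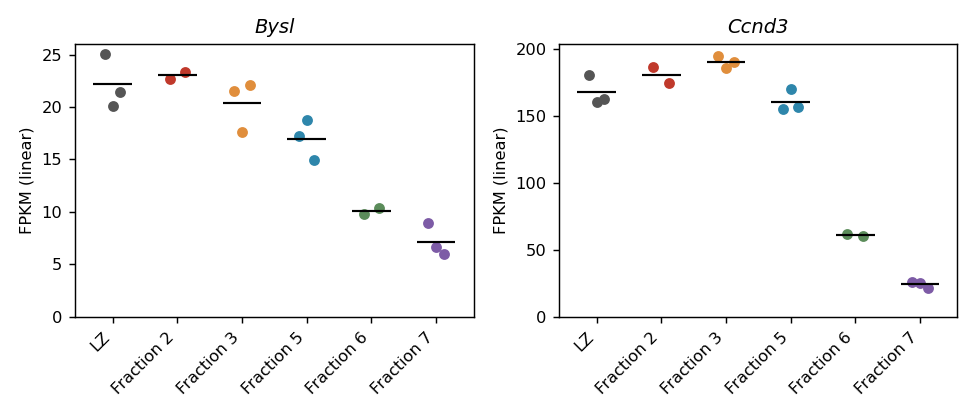
FPKM of Bysl and of Ccnd3, the gene on the opposite strand that shares exon bases with it, in each library (points) with gate means (bars), linear axes from 0. Both were lower in Fraction 6 than in Fraction 5 and lowest in Fraction 7, where Bysl had 8.90, 6.65 and 5.97 FPKM.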

How the data were processed

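RNA of sorted spleen B cells was sequenced in 16 libraries of 6 gates, with a kit that does not mark strand, per the labels' protocols. The authors deposited one table of FPKM per gene and library, and the submitters' processing notes name TopHat2 2.0.8, Cufflinks 2.1.1 and mouse build mm9. FPKM keep no read counts, so the absolute depth is unknown, no counting intervals are given, and the number of libraries limits the precision. FPKM are relative to each library's total, so a gene can move because others did.

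Of the entries, 1 without a gene name was left out. Genes at 1 FPKM or more in at least 2 libraries (11266) were tested on log2(FPKM + 1), a scale that understates changes of low genes, with limma 3.58.1 in R 4.3.3. One model with a mean per gate was fitted over all 16 libraries with a mean-variance trend, and p-values were adjusted by Benjamini-Hochberg over all 11266 genes at 0.05. The procedure was tested on simulated data. Errors are SD over libraries, or the SE of the fit where marked.

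The 42 genes, the lists of other pathway genes, cell cycle genes and markers of other cells, and the comparisons were chosen with earlier results of these data known. Values in every library are given for the 2 most abundant genes of each role and for the largest changes in each comparison; the 5 largest changes, exceptions and non-passing genes are named where few. Polr1b, Bysl and Tcof1 were also described after their values were seen. Every comparison was repeated with a pseudocount of 0.1, with 2 other scalings (quantile and median-ratio), with no filter or one of 5 FPKM, with only the 2 gates compared, with a replicate block, with array weights and with each library left out. No correlation is given, since the libraries fall into separate gates. Names, exon overlaps and promoters come from GENCODE and RefSeq on GRCm38, a build other than mm9, and proteins were not analysed here.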

Additional observations from a re-analysis of the deposited data

How the results depend on the processing

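Over all comparisons, 419 of 490 summary values under an alternative stayed within 1.5 times the count (or equal to it), or within 1 SD of the value. The other 71 moved. No call of the 42 genes turned its direction. In Fraction 2 against Fraction 3, quantile normalization gave a median of 0.65, and leaving out each library gave 27 to 35 genes higher, a median of 0.66 to 0.74, and 34 to 54 higher and 0 to 1 lower of the other pathway genes. In Fraction 5 against Fraction 3, leaving out each library gave 34 to 38 lower, and quantile normalization gave 3 other genes higher. In Fraction 5 against Fraction 2, quantile normalization gave a median of -1.14 and 4 other genes higher, and median-ratio scaling 2.

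In Fraction 6 against Fraction 5, 7 of the 42 genes were higher with no filter and 2 were lower with array weights. Leaving out each library gave 2 to 13 higher, 0 to 1 lower, a median of 0.17 to 0.31, and 3 to 9 higher and 0 to 3 lower of the other pathway genes. Of those, 5 were higher with no filter and 6 with only the 2 gates fitted, and 1 was lower with quantile normalization, with no filter, with only the 2 gates and with the replicate block.

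In Fraction 7 against Fraction 6, the count of 5 lower was 3 with no filter, 2 with only the 2 gates and 9 with array weights, which gave a median of -0.15. Leaving out each library gave 0 to 7 lower, a median of -0.17 to -0.0083, and 1 to 3 higher and 1 to 9 lower of the other genes. Of those, 7 were higher with quantile normalization, 5 with median-ratio scaling, 1 with only the 2 gates, 4 with the replicate block and 4 with array weights. The counts lower were 2 with quantile normalization, 1 with only the 2 gates and 10 with array weights. Without the Fraction 7 libraries with Sdc1 above 4 FPKM, a setting chosen after seeing the data that leaves 1 library in the gate, the median was 0.071.

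In Fraction 7 against LZ, the median was -0.53 with quantile normalization, -0.62 with median-ratio scaling and -0.83 to -0.69 with each library left out. Of the other genes, 10 were higher with quantile normalization, 2 with only the 2 gates and 2 to 4 with each library left out. In Fraction 7 against Fraction 5, leaving out each library gave 10 to 18 higher and 3 to 5 lower. Of the other genes it gave 12 to 18 higher and 8 to 15 lower, while 5 were lower with quantile normalization and 20 with array weights. The summed FPKM of the 42 genes over that of LZ, after median-ratio scaling, was 1.32 in Fraction 2, 0.597 in Fraction 6 and 0.572 in Fraction 7. The same ratios were 1.34, 0.576 and 0.531 for unscaled sums and 1.33, 0.616 and 0.597 for shares of all FPKM.

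Log2 changes near 0 changed sign in genes that had not passed. In Fraction 2 against Fraction 3, Tcof1 was -0.014 with quantile normalization, -0.012 with median-ratio scaling and -0.0083 to 0.047 with 1 library left out. In Fraction 6 against Fraction 5, Ncl was -0.0087 with the replicate block and -0.039 to 0.14 with 1 library left out, and Npm1 -0.042 to 0.18. In Fraction 7 against Fraction 6, array weights gave -0.10 for Fbl, -0.0096 for Imp4 and -0.023 for Ddx21. Leaving out 1 library there gave -0.10 to 0.12 for Fbl, -0.083 to 0.15 for Imp4, -0.060 to 0.12 for Ddx21, -0.13 to 0.16 for Wdr43 and -0.19 to 0.032 for Npm1, which was 0.10 without the high-Sdc1 libraries. In Fraction 7 against LZ, Nop14 was 0.029 with quantile normalization and Utp15 0.066 without the high-Sdc1 libraries. In Fraction 7 against Fraction 5, Npm1 was 0.13 with quantile normalization, 0.050 with median-ratio scaling, -0.099 to 0.083 with 1 library left out and 0.17 without the high-Sdc1 libraries. In the same comparison Nop56 was -0.0036 with array weights, Imp4 0.18 without the high-Sdc1 libraries and Pes1 -0.044 to 0.095 with 1 library left out. The causes were not tested.

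The gates share replicate numbers, and whether the numbers pair the libraries is not known. Over 36 pairs with the same number, the correlation of their deviations from the gate means ran from -0.184 to 0.155, with a median of -0.03. Over 70 pairs with different numbers it ran from -0.155 to 0.183, with a median of 0.01. In a gate of 2 libraries the deviations mirror each other, so these values cannot decide whether the numbers pair the libraries. With the replicate block, 35 genes were higher in Fraction 2 than in Fraction 3, 38 lower in Fraction 5 than in Fraction 3 and 42 than in Fraction 2, 11 higher and 1 lower in Fraction 6 than in Fraction 5, 4 lower in Fraction 7 than in Fraction 6 and 37 than in LZ, and 15 higher and 5 lower in Fraction 7 than in Fraction 5. Depth in reads is unknown, and Fractions 2 and 6 have only 2 libraries each. Leaving out 1 of them leaves a single library in the gate.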

Other observations

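The partners and antagonists of Myc were also measured, and their courses differed from one another. Max, the obligate partner of Myc, lay at 46.0, 40.9 and 35.4 FPKM in Fraction 7, against 57.8, 54.5 and 52.9 in LZ, a log2 change of -0.43 ± 0.08 (limma adjusted p = 0.000522). Mxd3, a Max-binding antagonist of Myc known from proliferating cells, was 5.48 and 6.50 FPKM in Fraction 6, against 21.3, 22.4 and 25.3 in Fraction 5 (-1.78 ± 0.13, limma adjusted p = 1.04e-06), so it fell where the mitosis genes fell. Mxd4, another antagonist, ran the other way between Fraction 3 and Fraction 5. It had 103, 106 and 95.6 FPKM in Fraction 5, against 62.0, 54.6 and 67.6 in Fraction 3 (0.72 ± 0.12, limma adjusted p = 0.000579), and was lower in Fraction 2 than in Fraction 3 (-0.52 ± 0.13, limma adjusted p = 0.0201). In Fraction 7 Mxd4 was back at 47.3, 47.0 and 46.2 FPKM, against 103 and 85.2 in Fraction 6 (-0.98 ± 0.13, limma adjusted p = 0.000136). Mga, a repressor that also binds Max, was higher in Fraction 7, at 16.1, 13.4 and 12.1 FPKM, against 6.99, 7.19 and 6.17 in LZ (0.93 ± 0.11, limma adjusted p = 5.47e-06). Mnt and Mlx did not pass between Fraction 7 and LZ, and Mycn was listed at 0 in all 16 libraries. The part of these genes in the levels of the 42 ribosome biogenesis genes was not tested.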
